A study of Homo sapiens with 6 samples.

Results

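EYA, SIX-family and DACH genes code for nuclear partners of the PAX transcription factors, and 7 of them were followed here across 6 bulk RNA-seq libraries of K562 cells, a human erythroleukaemia line that grows in suspension. They are EYA1, EYA2, EYA3, EYA4, SIX4, SIX5 and DACH1. The list was chosen by name and with measured values in view, since EYA1 had been seen to be nearly lost in both knockouts against Control. Of the 7 listed genes, 6 had a row under that symbol among 52088 rows of the count table, and DACH1 was not analysed here. The filter on low counts kept 4 of the 6 (EYA1, EYA3, SIX4 and SIX5) among 20746 genes tested, and EYA2 and EYA4 had too few reads to be tested.

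The libraries were 2 of Control cells with the genotype WT, 2 of PAX6_Ta KO cells and 2 of PBX3_Cl KO cells, each group with replicates 1 and 2. PAX6_Ta (PAX6_Tarzan in the sample labels) and PBX3_Cl (PBX3_Claudia) are ultra-conserved elements (UCEs), noncoding stretches that hardly differ between species, and each was removed with a pair of Cas9 guide RNAs. The knockout cells were grown from single-cell clones, and the labels do not say how many clones stand behind a group. In the column headers of the counts, both replicates of a knockout carry the same number. Its meaning is not stated, and both may come from the same clone. Control is not named as the study's editing control, which carried guides against GFP, so loss of an element cannot be told apart from transfection, selection and cloning. Nothing states that replicates came from separate cultures, and p-values therefore measure only the spread between these libraries.

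PAX proteins are DNA-binding factors with a paired domain that direct the growth of the eye, ear, kidney, muscle and other organs. SIX-family proteins bind DNA through a homeodomain, and EYA proteins, which do not bind DNA themselves, join them as transcriptional coactivators and also carry a phosphatase domain. DACH proteins resemble the SKI and SNO corepressors and act with SIX-family and EYA factors on shared targets. In the fly eye the corresponding genes form a network in which each member can feed back on the others, and in vertebrates the same families are known from muscle precursors and from branchial, ear and kidney development rather than from red cell precursors.

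The guide pairs are shown because they define the groups compared. They were read from the study's list of designed guides and matched on GRCh37 (each with 1 exact match on its chromosome), in lower case with the PAM in capitals. The PAX6_Ta pair lay at chr11:31809917-31809939 on the minus strand and at chr11:31811316-31811338 on the plus strand, with 1410 bp between the predicted cuts. The GENCODE annotation gives exon sequence of PAX6 and of ELP4 between those cuts. The PBX3_Cl pair lay at chr9:128456987-128457009 on the plus strand and at chr9:128457970-128457992 on the minus strand, with 972 bp between the cuts. None of the 7 genes lies on chromosome 9 or 11.
PAX6_Ta U6 guide: gctttctgtgcggttgtggaTGG
PAX6_Ta H1 guide: caagtccattccttccccagTGG
PBX3_Cl U6 guide: ctcagtactgcaaagactgtGGG
PBX3_Cl H1 guide: gcttgtacagttaagcatgaTGG

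The promoters of EYA3 and SIX4 are shown because, of the 6 genes with a row, these were the most abundant EYA and the more abundant SIX-family transcript in every library. The windows are those of RefSeq on GRCh38.p14, a later build than the GRCh37 of the counts, from 250 bases before to 50 bases after the start of transcription. The EYA3 window is chr1:28088561-28088860 on the minus strand and the SIX4 window is chr14:60724302-60724601 on the minus strand. Capitals mark the GC box (GGGCGG, on either strand) and the box that reads CCAAT on either strand, and no marked match overlaps another.
EYA3: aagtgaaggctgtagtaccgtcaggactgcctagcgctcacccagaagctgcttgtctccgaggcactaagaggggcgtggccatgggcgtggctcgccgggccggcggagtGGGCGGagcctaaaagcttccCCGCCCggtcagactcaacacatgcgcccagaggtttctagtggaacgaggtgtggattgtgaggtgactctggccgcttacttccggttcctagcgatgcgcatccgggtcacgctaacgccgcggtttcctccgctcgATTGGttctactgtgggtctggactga
SIX4: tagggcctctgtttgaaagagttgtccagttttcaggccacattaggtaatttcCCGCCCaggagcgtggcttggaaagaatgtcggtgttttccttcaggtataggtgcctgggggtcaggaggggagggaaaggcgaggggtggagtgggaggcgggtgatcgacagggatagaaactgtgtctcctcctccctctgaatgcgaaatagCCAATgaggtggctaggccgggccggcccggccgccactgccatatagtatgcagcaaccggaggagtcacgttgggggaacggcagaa

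The EYA3 window held 2 GC boxes and 1 CCAAT box and the SIX4 window 1 of each, motifs found in 45% and 34.6% of the 35116 promoter windows of the same length. The EYA3 window held 25 CpG and the SIX4 window 14, against a median of 14 over all windows. The MEF3 site of SIX-family proteins was searched as TCAGGTT (3.37% of windows), a core of the PAX6 paired-domain site as TTCACGC (1.34%) and the GATA site as AGATAA (10.3%), each on both strands. None of these 3 runs of letters occurred in the windows of EYA3, EYA4 or SIX4. Windows of EYA1, EYA2 and SIX5 are not reported here.

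The 6 libraries held 45912044 to 60908470 counts. In each group replicates 1 and 2 correlated at 0.981 to 0.99 in log2 CPM, where CPM is the count of a gene relative to the library total after TMM scaling. The 12 erythroid markers were all tested and summed to 6130 to 11100 CPM, with the lower totals in Control (7180 and 6130 CPM) and the higher in PAX6_Ta KO (11100 and 9490 CPM) and PBX3_Cl KO (9480 and 8050 CPM). Summed levels of some short marker lists of other cells also differed between groups, and such a sum can rest on 1 gene. The summed level of 4 fibroblast markers was 49.0 and 133 CPM in Control, 23 and 23.1 CPM in PAX6_Ta KO and 3.02 and 3.14 CPM in PBX3_Cl KO, with 3 of the 4 tested. The 3 epithelial markers summed to 42.3 and 45.6 CPM in Control, 3.71 and 2.13 CPM in PAX6_Ta KO and 26.8 and 21.9 CPM in PBX3_Cl KO. Only 1 of these 3 passed the filter on low counts, and KRT5 was at 0 throughout. The 3 neural markers summed to 22.7 and 18.4 CPM in Control, against 5.29 to 6.85 CPM in the 4 knockout libraries. Here too only 1 of the 3 passed the filter, and NEUROD1 was at 0. The 3 skeletal muscle markers (0.93 to 2.5 CPM), 4 T or B cell markers (4.93 to 10.1 CPM, MS4A1 at 0) and 3 pluripotent markers (0.291 to 1.38 CPM) stayed low in every library. The part of these markers in the results below was not tested, and in bulk RNA fewer cells that express a gene and less of its RNA per cell cannot be told apart.

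Per kilobase of annotated exon, EYA3 led in every group. In Control its level was 25.1 ± 1.83 CPM per kb (SD, n = 2), followed by SIX4 at 3.41 ± 0.429, SIX5 at 1.53 ± 0.135 and EYA1 at 1.01 ± 0.0729 CPM per kb. These 4 levels were further apart than their spread. EYA2 (0.00821 ± 0.0116 CPM per kb) and EYA4 (0.00248 ± 0.000303 CPM per kb) came last in Control and could not be ordered. In PAX6_Ta KO EYA3, SIX4 and SIX5 kept that order at 14.8 ± 0.228, 3.85 ± 0.0468 and 1.84 ± 0.0411 CPM per kb, and in PBX3_Cl KO at 28.4 ± 0.838, 2.76 ± 0.154 and 1.46 ± 0.448 CPM per kb. EYA1 fell among the trace transcripts in both knockouts, at 0.00427 ± 0.000277 and 0.0036 ± 0.00179 CPM per kb. It was there within the spread of EYA2, which was at 0.00787 ± 0.0111 CPM per kb in PAX6_Ta KO and 0.00627 ± 0.00887 CPM per kb in PBX3_Cl KO.

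**Figure D1:**
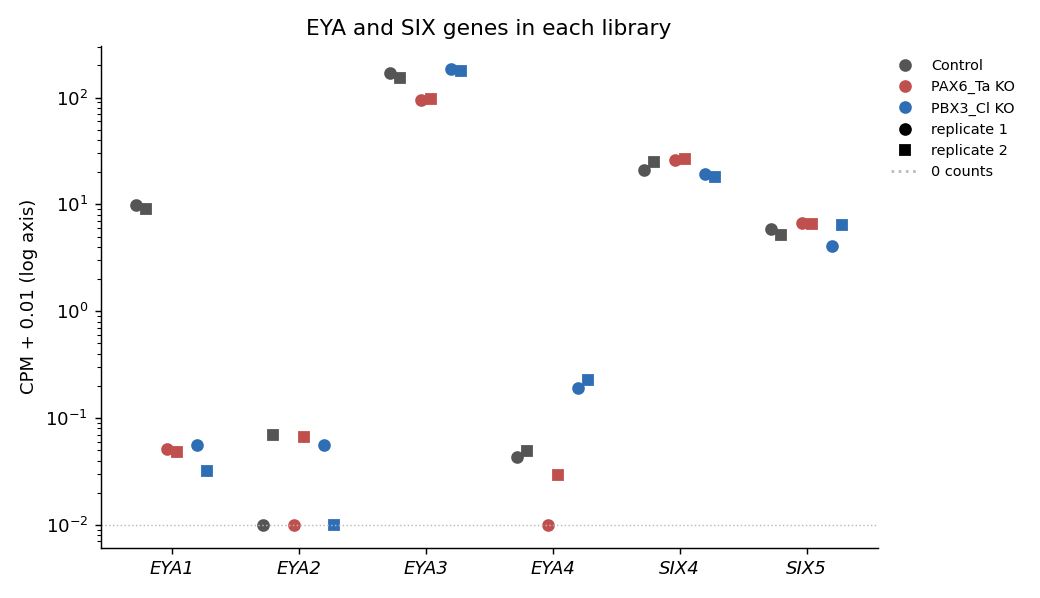
Level of 6 EYA and SIX-family genes in each library, as CPM with 0.01 added on a log axis. Colours give the group, circles are replicate 1 and squares replicate 2, and points on the dotted line had 0 counts. EYA1 was at 9.91 and 8.95 CPM in Control and at 0.0218 to 0.0454 CPM in the 4 knockout libraries, EYA3 was lowest in PAX6_Ta KO, and EYA4 was highest in PBX3_Cl KO.

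EYA1 (ENSG00000104313, chr8:72109668-72504260 on GRCh37, minus strand) is the family member whose loss of a copy causes branchio-oto-renal syndrome. Control replicates 1 and 2 had 595 and 452 counts. Both PAX6_Ta KO libraries had 2 counts, and the PBX3_Cl KO libraries had 2 and 1. The gene was thus expressed at a low but well counted level in Control and was close to absent from both knockouts, with every knockout library far below both Control libraries. The mean level was 9.43 ± 0.679 CPM in Control, 0.0398 ± 0.00258 CPM in PAX6_Ta KO and 0.0336 ± 0.0166 CPM in PBX3_Cl KO (SD, n = 2 each). The fitted log2 difference was -7.80 (SE 0.482) for PAX6_Ta KO against Control and -8.04 (SE 0.499) for PBX3_Cl KO against Control. These SEs were derived from the test statistic. With so few knockout counts they understate the uncertainty, and the counting intervals that follow are wider. As a ratio of levels, Control was 238 times PAX6_Ta KO (95% counting interval 92.8 to 877) and 284 times PBX3_Cl KO (96.9 to 1380). These values chose the list and are given as a description, and the intervals cover counting error only.

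The 2 knockouts could not be told apart in EYA1. PAX6_Ta KO against PBX3_Cl KO gave a log2 difference of 0.23 (SE 0.856, 95% interval -1.44 to 1.91). The list was chosen with EYA1 seen as nearly lost in both knockouts. A small difference between them follows from that choice and is given as a description. With 4 counts in one group and 3 in the other, the depth does not show whether they were alike. Both knockouts were set against the same Control libraries. An annotated antisense lncRNA within EYA1 (ENSG00000254031) had 2 and 4 counts in Control and 0 in each knockout library. Whether counting used strand is not stated, so reads of a gene and its antisense partner cannot be told apart.

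EYA3 (ENSG00000158161, chr1:28296855-28415148, minus strand) is the most widely expressed member of the EYA family. It had 10172 and 7715 counts in Control, 4521 and 5065 in PAX6_Ta KO and 8199 and 8170 in PBX3_Cl KO. Its level was 169 and 153 CPM in Control, 94.1 and 96.2 CPM in PAX6_Ta KO and 186 and 178 CPM in PBX3_Cl KO. Both PAX6_Ta KO libraries lay below the other 4, and PBX3_Cl KO lay above Control with no overlap. PAX6_Ta KO was lower than PBX3_Cl KO by a log2 difference of -0.94 (SE 0.187, edgeR quasi-likelihood adjusted p = 0.0056). The call was lost without PAX6_Ta KO replicate 1 (-0.92, adjusted p = 0.0708) and without PAX6_Ta KO replicate 2 (-0.90, adjusted p = 0.0853). Against Control, a comparison that the choice of the list used, the log2 difference was -0.76 (SE 0.186) in PAX6_Ta KO and 0.18 (SE 0.185) in PBX3_Cl KO. The first of these was called with all libraries and not without any single Control or PAX6_Ta KO library (-0.83 to -0.68).

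The short arm of chromosome 1, where EYA3 lies, was itself lower in PAX6_Ta KO. The median over its 756 other tested protein-coding genes was -0.31 in log2 against Control and -0.32 against PBX3_Cl KO, while it was 0.00 in PBX3_Cl KO against Control. EYA3 was below that median in PAX6_Ta KO, with 93 of the 756 genes lower than it against Control and 69 against PBX3_Cl KO. With the median of the arm taken out, the log2 difference of EYA3 was -0.45 against Control and -0.62 against PBX3_Cl KO (adjusted p = 0.0562), and neither passed. A processed pseudogene (22 to 67 counts) and RN7SL559P (16 to 38 counts) lie inside EYA3 on the same strand and were counted as rows of their own.

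EYA2 and EYA4 were near the limit of counting. EYA2 (ENSG00000064655, chr20:45523263-45817492, plus strand) had 0 and 3 counts in Control, 0 and 3 in PAX6_Ta KO and 2 and 0 in PBX3_Cl KO. No difference between groups could be detected at this depth. EYA4 (ENSG00000112319, chr6:133561652-133853266, plus strand), a member tied to inherited hearing loss and cardiomyopathy, had 2 and 2 counts in Control, 0 and 1 in PAX6_Ta KO and 8 and 10 in PBX3_Cl KO. Both PBX3_Cl KO libraries were above the other 4, though all were trace levels (0.2 ± 0.0261 CPM in PBX3_Cl KO). The level in PBX3_Cl KO was 5.53 times that in Control (95% counting interval 1.82 to 22.5) and 20.2 times that in PAX6_Ta KO (3.18 to 840). Control against PAX6_Ta KO gave a ratio of 3.64 (0.361 to 179), which includes 1. These intervals hold counting error alone, and EYA4 was not tested.

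SIX4 (ENSG00000100625, chr14:61176257-61191069, minus strand), a homeodomain factor known from muscle precursors, had 1263 and 1270 counts in Control, 1242 and 1385 in PAX6_Ta KO and 855 and 821 in PBX3_Cl KO. Its level was 21.0 and 25.1 CPM in Control, 25.9 and 26.3 CPM in PAX6_Ta KO and 19.4 and 17.9 CPM in PBX3_Cl KO. The 3 groups followed one another without overlap, with PBX3_Cl KO lowest, but the steps were small. The log2 difference was 0.18 (SE 0.198) for PAX6_Ta KO and -0.31 (SE 0.198) for PBX3_Cl KO against Control. PAX6_Ta KO against PBX3_Cl KO gave 0.48 (SE 0.199, 95% interval 0.09 to 0.87, edgeR quasi-likelihood adjusted p = 0.152), which did not pass after adjustment over all genes. The median of the 436 other tested protein-coding genes on the long arm of chromosome 14 was 0.26, -0.04 and 0.31 in the same comparisons.

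SIX5 (ENSG00000177045, chr19:46268043-46272510, minus strand) lies next to DMPK, the gene of myotonic dystrophy. It had 350 and 260 counts in Control, 322 and 342 in PAX6_Ta KO and 180 and 291 in PBX3_Cl KO. Its level was 5.83 and 5.15 CPM in Control, 6.70 and 6.50 CPM in PAX6_Ta KO and 4.08 and 6.35 CPM in PBX3_Cl KO. The PBX3_Cl KO replicates stood further apart than the groups did, and their range took in both Control libraries. The log2 differences were 0.27 (SE 0.291) for PAX6_Ta KO and -0.07 (SE 0.292) for PBX3_Cl KO against Control, and 0.34 (SE 0.292, 95% interval -0.23 to 0.91, adjusted p = 0.549) between the knockouts. The antisense genes DM1-AS (30 to 74 counts) and ENSG00000259605 (12 to 50 counts) overlap SIX5, and some of its reads could be theirs.

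**Figure D2:**
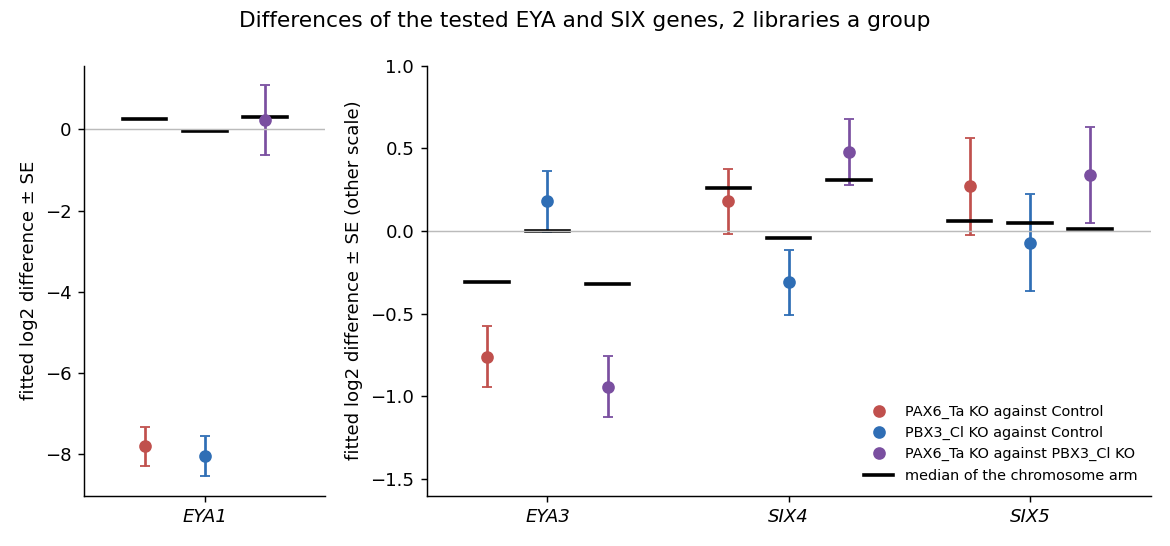
Fitted log2 difference with its standard error for EYA1 (left) and for EYA3, SIX4 and SIX5 (right, on another scale), 2 libraries a group. The black bar beside each point is the median over tested protein-coding genes of the same chromosome arm. EYA1 stood at -7.80 and -8.04 in both knockouts against Control, EYA3 lay below its arm in PAX6_Ta KO (-0.76 against -0.31), and SIX4 and SIX5 stayed within 0.5 of 0.

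Counted over the 4 tested genes, 0 were higher and 2 lower (EYA1 and EYA3) in PAX6_Ta KO against Control, where 7.21% of all tested genes were called higher and 4.21% lower. In PBX3_Cl KO against Control 0 were higher and 1 was lower (EYA1), where the shares of all tested genes were 6.28% and 2.69%. At an unadjusted p below 0.05 and with DESeq2 0 were higher in either. Both comparisons were used in choosing the list, and nothing is read from these counts. In PAX6_Ta KO against PBX3_Cl KO 0 were higher and 1 was lower (EYA3), where 5.26% and 6.71% of all tested genes were called. At an unadjusted p below 0.05 SIX4 was also higher there (1 of 4), and DESeq2 called 0 higher and 1 lower. The median log2 difference of the 4 was -0.29, -0.19 and 0.29 in the same order, and over all tested genes it was -0.02, -0.01 and -0.01.

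The 5 tested genes whose profile over the 6 libraries was most like that of EYA1 were picked for that likeness. Their fall from many counts in Control to few in both knockouts follows from the choice and is given as a description. Likeness was the root mean square difference of log2 CPM after centring each gene on its own mean, over a range of 7.33 for EYA1 itself. PTPRVP, a pseudogene of a receptor tyrosine phosphatase, came first at 0.424, with 1699 and 1722 counts in Control and 13 to 23 in the knockout libraries. SMAD1, which carries bone morphogenetic protein signals to the nucleus, followed at 0.465, with 397 and 240 counts in Control and 0 to 3 in the knockouts. TNC, which codes for the matrix protein tenascin-C, was at 0.506, with 599 and 183 counts in Control and 0 to 3 in the knockouts. PTPN7, a tyrosine phosphatase of blood cells, was at 0.519, with 9107 and 6261 counts in Control and 22 to 101 in the knockouts. IGSF10, a secreted immunoglobulin superfamily protein, was at 0.545, with 687 and 441 counts in Control and 2 to 8 in the knockouts. With so few reads in the knockouts, the likeness rests mainly on the step from Control.

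**Figure D3:**
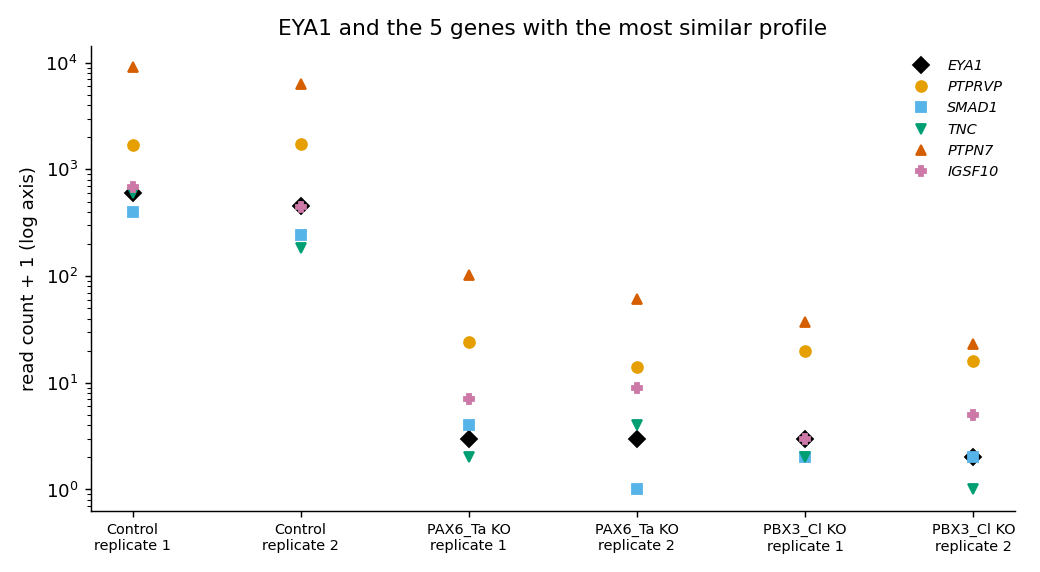
Read count with 1 added, on a log axis, of EYA1 and of the 5 tested genes with the most similar profile, for each of the 6 libraries. All 6 genes were high in both Control libraries and low in all 4 knockout libraries. For the 5 this follows from their choice by likeness to EYA1. EYA1 had 595 and 452 counts in Control and 1 or 2 in each knockout library.

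With all 6 libraries, the filter on low counts and no replicate block, edgeR called no gene around EYA1 lower in either knockout. Of the 16 other tested genes within 2 Mb, 5 were called higher and 0 lower in PAX6_Ta KO against Control. The shares of all tested genes were 7.21% and 4.21%. At an unadjusted p below 0.05 the counts were 6 and 0, and DESeq2 called 5 and 0. In PBX3_Cl KO against Control the same edgeR fit called 0 in either direction, beside 6.28% higher and 2.69% lower of all tested genes. At an unadjusted p below 0.05, 2 were higher and 1 lower. TRPA1 was just short of the threshold (-1.12, adjusted p = 0.0621). TRPA1 was called lower there with DESeq2 (adjusted p = 0.0253), and by edgeR with no filter on low counts (-1.13, adjusted p = 0.0173), under the replicate block (-1.14, adjusted p = 0.0441) and without PBX3_Cl KO replicate 1 (-1.67, adjusted p = 0.0204). Between the knockouts 4 were higher in PAX6_Ta KO (LACTB2, MSC-AS1, MSC and TRPA1) and 0 lower, beside 5.26% and 6.71% of all tested genes. The counts were 5 and 0 at an unadjusted p below 0.05 and 4 and 0 with DESeq2. The long arm of chromosome 8 had a median log2 difference of 0.25 in PAX6_Ta KO and -0.05 in PBX3_Cl KO against Control over 279 tested protein-coding genes, and 0 of them lay below EYA1 in either comparison. The nearest tested protein-coding genes were LACTB2, 528.2 kb away on one side, and MSC, 249.5 kb away on the other.

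MSC (musculin), a basic helix-loop-helix repressor known from muscle precursors and lymphocytes, had 3 and 1 counts in Control, 31 and 22 in PAX6_Ta KO and 0 in both PBX3_Cl KO libraries. It was higher in PAX6_Ta KO than in Control (3.79, SE 0.758, adjusted p = 0.00681) and than in PBX3_Cl KO (adjusted p = 0.00192). Without Control replicate 1 the first was 4.57. LACTB2, an endoribonuclease, had 253 and 272 counts in Control, 456 and 606 in PAX6_Ta KO and 269 and 154 in PBX3_Cl KO. It was higher in PAX6_Ta KO than in Control (1.13, adjusted p = 0.0382), a call that was lost without any single Control or PAX6_Ta KO library (0.96 to 1.32, adjusted p = 0.0515 to 0.196), with the median of the arm taken out (0.88, adjusted p = 0.123), and with the stricter filter (1.14, adjusted p = 0.0501). Between the knockouts LACTB2 differed by 1.15 (adjusted p = 0.0342), which was lost without PAX6_Ta KO replicate 1 (1.28, adjusted p = 0.0707), PAX6_Ta KO replicate 2 (1.05, adjusted p = 0.176) or PBX3_Cl KO replicate 2 (0.78, adjusted p = 0.107), and with the median of the arm taken out (0.86, adjusted p = 0.128).

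The other 3 genes called near EYA1 are named because they were counted, with their values already seen. MSC-AS1, transcribed from the other strand of the MSC locus, had 2 and 2 counts in Control, 92 and 80 in PAX6_Ta KO and 2 and 2 in PBX3_Cl KO (PAX6_Ta KO against Control 5.47, adjusted p = 6.7e-05). TRPA1, an ion channel of sensory neurons, had 85 and 88 counts in Control, 1352 and 1177 in PAX6_Ta KO and 42 and 23 in PBX3_Cl KO (4.0, adjusted p = 7.3e-06). MSC, MSC-AS1 and TRPA1 lie 236.1 to 427.9 kb from EYA1 on the same side and kept their calls in PAX6_Ta KO in every alternative that tested them. NCOA2, a nuclear receptor coactivator, had 2721 and 1909 counts in Control, 3894 and 4575 in PAX6_Ta KO and 2194 and 3536 in PBX3_Cl KO (1.01, adjusted p = 0.0118). The call of NCOA2 was lost without Control replicate 2 (0.89, adjusted p = 0.0859) and with the median of the arm taken out (0.77, adjusted p = 0.0561). NCOA2 also passed in PBX3_Cl KO against Control without PBX3_Cl KO replicate 1 (0.86, adjusted p = 0.0219), and between the knockouts without PBX3_Cl KO replicate 2 (0.75, adjusted p = 0.0333).

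**Figure D4:**
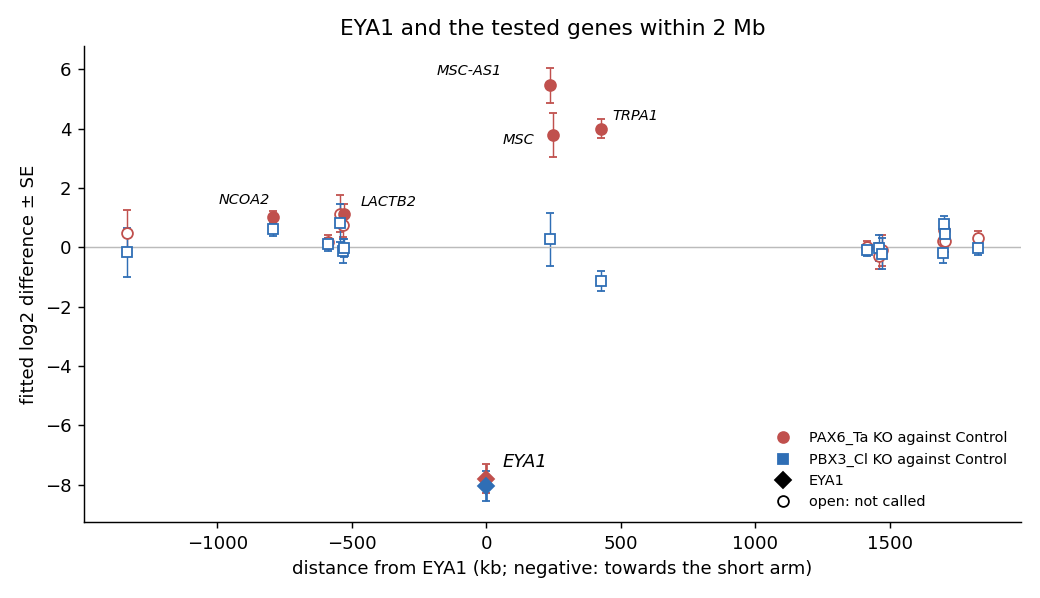
Fitted log2 difference with its standard error of EYA1 (diamonds, at 0 kb) and of the 16 other tested genes within 2 Mb, by distance from EYA1 in kb. Red circles are PAX6_Ta KO and blue squares PBX3_Cl KO against Control, filled where called, and MSC is left out of the second because PBX3_Cl KO had 0 counts. EYA1 stood at -7.80 and -8.04, while MSC-AS1, MSC and TRPA1 rose by 5.47, 3.79 and 4.0 in PAX6_Ta KO.

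Next to EYA3, single neighbours differed where EYA3 was not called. XKR8, a phospholipid scramblase that lies 2.3 kb from EYA3, had 485 and 321 counts in Control, 444 and 365 in PAX6_Ta KO and 19 and 27 in PBX3_Cl KO. It was lower in PBX3_Cl KO than in Control (-3.81, SE 0.352, adjusted p = 2.1e-05), where EYA3 differed by 0.18. On the other side of EYA3, PTAFR, the receptor of platelet-activating factor, did not pass in any comparison (-0.71, -0.49 and -0.22 in log2). The 90 tested neighbours of EYA3 had a median of -0.49 in PAX6_Ta KO against Control, -0.08 in PBX3_Cl KO against Control and -0.44 between the knockouts.

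Beside SIX4, 10.4 kb away, MNAT1, an assembly factor of the CDK-activating kinase, was not called with all libraries (0.41, -0.18 and 0.59). Between the knockouts it passed without PBX3_Cl KO replicate 1 (1.25, adjusted p = 0.0193) and was 0.16 without PBX3_Cl KO replicate 2.

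Beside SIX5, MEIOSIN, a regulator of entry into meiosis 0.2 kb away, had 265 and 149 counts in Control, 89 and 97 in PAX6_Ta KO and 63 and 36 in PBX3_Cl KO. It was lower in PBX3_Cl KO than in Control (-1.73, adjusted p = 0.0153), which was lost without Control replicate 1 (-1.41, adjusted p = 0.115) or without PBX3_Cl KO replicate 2 (-1.37, adjusted p = 0.0645). In PAX6_Ta KO against Control its difference passed under the replicate block (-0.95, adjusted p = 0.0494) and not without it (-1.0, adjusted p = 0.131). DMPK, a protein kinase gene 0.5 kb from SIX5 and described as a SIX5 target, was not called with all libraries (0.62, 0.48 and 0.14). DMPK passed in PAX6_Ta KO against Control with only these 2 groups fitted (0.62, adjusted p = 0.0312) and without either PBX3_Cl KO library (adjusted p = 0.0311 and 0.0321). In PBX3_Cl KO against Control it passed without PBX3_Cl KO replicate 1 (0.80, adjusted p = 0.0363) and was 0.03 without replicate 2. Next to EYA2, TP53RK and ZMYND8 were not called, nor were RPS12 and TBPL1 next to EYA4, with log2 differences between -0.41 and 0.22 in the 3 comparisons.

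Over all 6 members, 310 neighbours were tested. Of these, 7.74% were called higher and 4.52% lower in PAX6_Ta KO against Control, 2.58% and 4.19% in PBX3_Cl KO against Control, and 5.16% and 6.45% in PAX6_Ta KO against PBX3_Cl KO. The shares of all tested genes were 7.21% and 4.21%, 6.28% and 2.69%, and 5.26% and 6.71% in the same order. Under the replicate block, which pairs libraries by number, the counts of calls rose from 38 to 67, from 21 to 37 and from 36 to 63.

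The wider network was read from a list of 49 PAX, SIX-family and DACH relatives, cofactors, EYA substrates, EYA-binding G proteins and described targets, none of them members. Of the 49 genes, 29 were tested, and 12 had 0 counts in every library, among them the muscle regulators MYOG, MYOD1, MYF5 and MYF6, the eye genes SIX3 and SIX6, and DACH2. In PAX6_Ta KO against Control 3 of 29 were higher (10.3%) and 1 lower (3.45%), beside 7.21% and 4.21% of all tested genes. In PBX3_Cl KO against Control 1 was higher (3.45%) and 4 lower (13.8%), beside 6.28% and 2.69%. In PAX6_Ta KO against PBX3_Cl KO 4 were higher (13.8%) and 1 lower (3.45%), beside 5.26% and 6.71%. The median log2 difference of the 29 was -0.02, 0.05 and -0.15. Under the replicate block 4 were higher and 3 lower in the first comparison, 3 higher and 5 lower in the second and 6 higher and 3 lower in the last. Without PAX6_Ta KO replicate 1 the first comparison had 2 calls, both higher, in place of 4, and the second had 3 in place of 5 without Control replicate 1 or without PBX3_Cl KO replicate 2.

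Among the PAX factors, 4 of 9 were tested. PAX3, known from neural crest and muscle precursors, had 20 and 26 counts in Control, 21 and 9 in PAX6_Ta KO and 0 in both PBX3_Cl KO libraries. With the group set to 3 counts in all it was at least 12.5-fold lower in PBX3_Cl KO than in Control (edgeR quasi-likelihood adjusted p = 0.00506) and at least 8.93-fold lower than in PAX6_Ta KO (adjusted p = 0.00839).

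PAX6, the eye and brain regulator after which PAX6_Ta is named, had 580 and 313 counts in Control, 642 and 538 in PAX6_Ta KO and 433 and 400 in PBX3_Cl KO. It was not called in any comparison (0.57, SE 0.275, adjusted p = 0.248 in PAX6_Ta KO and 0.22, SE 0.275, adjusted p = 0.763 in PBX3_Cl KO against Control). With the median of the arm taken out, these differences of PAX6 were -0.05 and -0.41, and neither was called. No allowance was made for the exon sequence between the PAX6_Ta cuts. PAX8, known from thyroid and kidney, had 374 to 537 counts over the 6 libraries and log2 differences of 0.23, 0.37 and -0.15, none of which passed. PAX9, known from tooth and pharyngeal pouch development, had 310 and 329 counts in Control, 316 and 306 in PAX6_Ta KO and 570 and 430 in PBX3_Cl KO. Both PBX3_Cl KO libraries were above the other 4, and the differences were just short of the threshold, at 0.93 (adjusted p = 0.0513) against Control and -0.85 (adjusted p = 0.0635) for PAX6_Ta KO against PBX3_Cl KO. Both passed with DESeq2 (adjusted p = 0.0174 and 0.0385) and under the replicate block (adjusted p = 0.035 and 0.0382), without PBX3_Cl KO replicate 2 (1.15, adjusted p = 0.0258, and -1.06, adjusted p = 0.0278) and with the median of the arm taken out (0.98, adjusted p = 0.0471, and -1.15, adjusted p = 0.0173). With no filter on low counts the first passed (adjusted p = 0.0373).

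**Figure D5:**
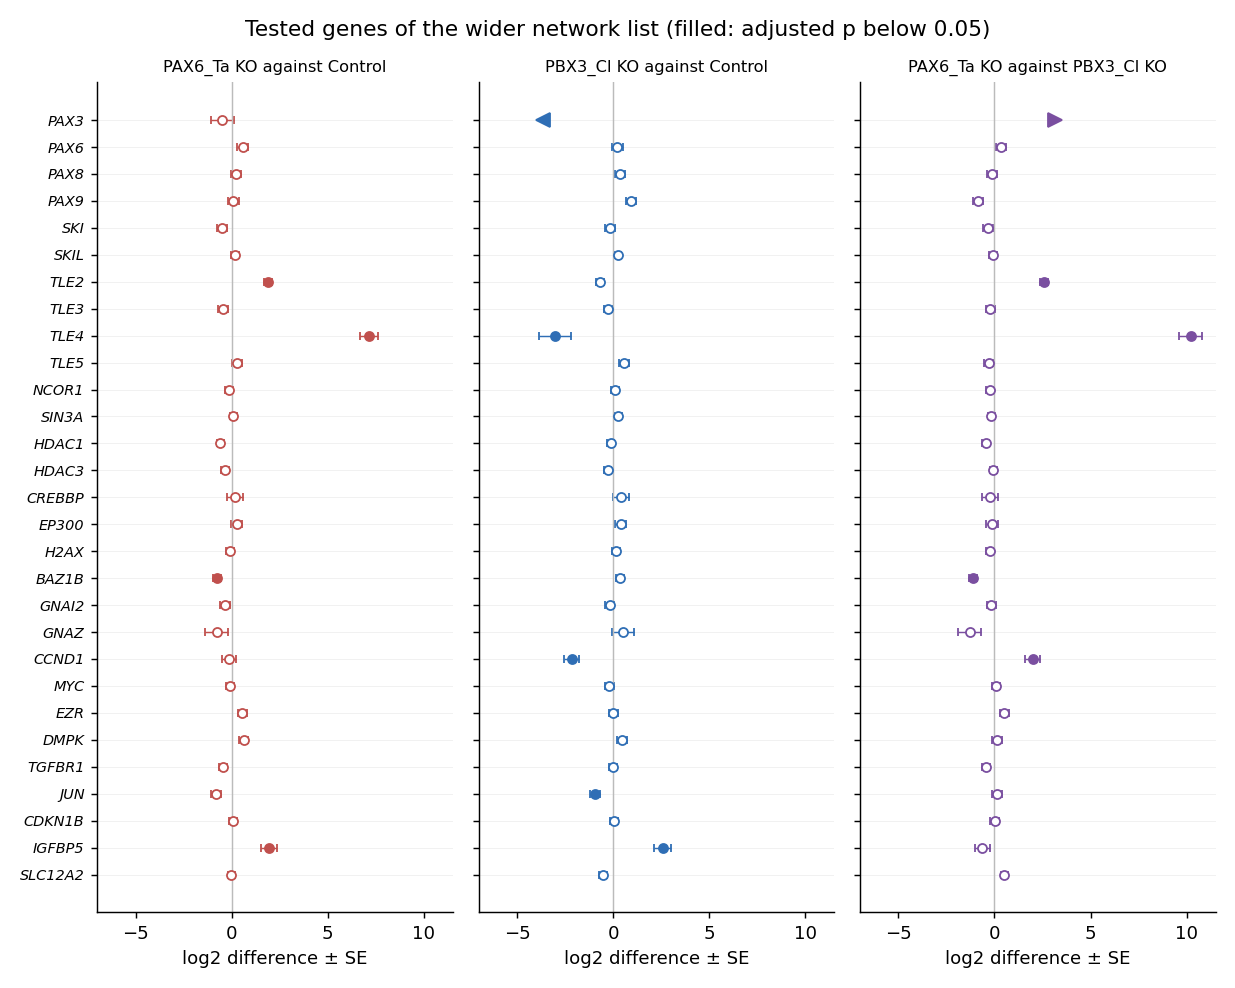
Fitted log2 difference with its standard error for the 29 tested genes of the wider network list in each of the 3 comparisons, filled where the adjusted p was below 0.05. Triangles for PAX3 stand at the bound against 3 counts. TLE4 rose by 7.16 and TLE2 by 1.87 in PAX6_Ta KO against Control, and CCND1 fell by 2.14 in PBX3_Cl KO against Control.

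Of the cofactors, 12 were tested, and the Groucho-type corepressors TLE2 and TLE4 were the only ones called in any of the 3 comparisons. In PAX6_Ta KO against Control 2 were higher and 0 lower, beside 7.21% and 4.21% of all tested genes. In PBX3_Cl KO against Control 0 were higher and 1 lower, beside 6.28% and 2.69%. Between the knockouts 2 were higher in PAX6_Ta KO and 0 lower, beside 5.26% and 6.71%. TLE4 had 28 and 5 counts in Control, 2256 and 1956 in PAX6_Ta KO and 2 and 1 in PBX3_Cl KO. It was higher in PAX6_Ta KO than in Control (7.16, SE 0.464, adjusted p = 1.5e-06), and its level there was 1250 times that in PBX3_Cl KO (95% counting interval 429 to 6080). The difference from Control was 8.69 without Control replicate 1 and 6.49 without Control replicate 2. Control was 8.95 times PBX3_Cl KO (2.81 to 45.6, adjusted p = 0.0404), a call that was lost without Control replicate 1 (log2 difference -1.50, adjusted p = 0.504), without either PBX3_Cl KO library (adjusted p = 0.128 and 0.2), with the stricter filter (adjusted p = 0.0625) and with only these 2 groups fitted (adjusted p = 0.0688).

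TLE2 had 2000 and 1387 counts in Control, 6018 and 5136 in PAX6_Ta KO and 813 and 890 in PBX3_Cl KO, with no overlap between groups. It was higher in PAX6_Ta KO than in Control (1.87, SE 0.208, adjusted p = 7.9e-05) and than in PBX3_Cl KO (2.56, SE 0.214, adjusted p = 7.7e-06). PBX3_Cl KO against Control gave -0.68 (adjusted p = 0.0596), which passed under the replicate block (adjusted p = 0.0247), with no filter (adjusted p = 0.0439) or the stricter filter (adjusted p = 0.0419) on low counts, and with the median of the arm taken out (-1.02, adjusted p = 0.00763). The SKI-type genes SKI and SKIL, the histone deacetylases HDAC1 and HDAC3, the corepressors NCOR1 and SIN3A and the acetyltransferases CREBBP and EP300 were not called in any comparison, with log2 differences between -0.59 and 0.41. TLE3 and TLE5, of the same family as TLE2 and TLE4, were not called either (-0.45 to 0.57).

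Of the 2 genes of the EYA phosphatase's histone substrate and its kinase, H2AX was not called (-0.08, 0.14 and -0.22) and BAZ1B, which phosphorylates the same tyrosine that EYA proteins dephosphorylate, was lower in PAX6_Ta KO. BAZ1B had 29785 and 21055 counts in Control, 13644 and 13724 in PAX6_Ta KO and 23985 and 28901 in PBX3_Cl KO. PAX6_Ta KO was below PBX3_Cl KO (log2 difference -1.11, SE 0.213, adjusted p = 0.00444) and below Control (-0.75, SE 0.211, adjusted p = 0.0394). The call against Control was lost without any single Control or PAX6_Ta KO library (-0.87 to -0.61, adjusted p = 0.0994 to 0.318), and that against PBX3_Cl KO without PAX6_Ta KO replicate 2 (-1.0, adjusted p = 0.0777). With the median of the chromosome arm taken out neither passed (-0.51 in both, adjusted p = 0.198 and 0.183), and the call against Control was also lost with DESeq2 size factors (-0.73, adjusted p = 0.0587). The G protein genes GNAI2 and GNAZ, whose products bind EYA2, were not called in any comparison.

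Of 18 described targets of SIX-family, EYA or DACH proteins, 9 were tested and 3 were called in at least 1 comparison. In PAX6_Ta KO against Control 1 was higher and 0 lower, beside 7.21% and 4.21% of all tested genes. In PBX3_Cl KO against Control 1 was higher and 2 lower, beside 6.28% and 2.69%. Between the knockouts 1 was higher in PAX6_Ta KO and 0 lower, beside 5.26% and 6.71%. CCND1, which codes for cyclin D1, had 452 and 959 counts in Control, 653 and 547 in PAX6_Ta KO and 153 and 116 in PBX3_Cl KO. Both PBX3_Cl KO libraries were below the other 4, with a log2 difference of -2.14 (SE 0.392, adjusted p = 0.00389) against Control, and PAX6_Ta KO was above it by 2.00 (SE 0.391, adjusted p = 0.00499). Both calls were lost without PBX3_Cl KO replicate 2 (-1.93, adjusted p = 0.0528, and 1.79, adjusted p = 0.0548). The difference from Control was -1.33 (adjusted p = 0.0238) without Control replicate 2, the library with 959 counts, and -2.66 without Control replicate 1.

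JUN, a part of the AP-1 factor, had 8497 and 3677 counts in Control, 3221 and 2918 in PAX6_Ta KO and 2461 and 2554 in PBX3_Cl KO. It was lower in PBX3_Cl KO than in Control (-0.94, SE 0.271, adjusted p = 0.0496), a call that was lost without Control replicate 1 (-0.38, adjusted p = 0.59), without PBX3_Cl KO replicate 1 (-0.97, adjusted p = 0.132), without PBX3_Cl KO replicate 2 (-0.94, adjusted p = 0.142), with the stricter filter (-0.97, adjusted p = 0.0573) and with the median of the arm taken out (-0.94, adjusted p = 0.0555). In PAX6_Ta KO against Control JUN was not called (-0.81, adjusted p = 0.0799). It passed there under the replicate block (-0.76, adjusted p = 0.043), with no filter on low counts (-0.80, adjusted p = 0.0094) and without Control replicate 2 (-1.21, adjusted p = 0.00354), while without Control replicate 1 the difference was -0.25. In PBX3_Cl KO against Control it was -1.34 without Control replicate 2.

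IGFBP5, which binds insulin-like growth factors, had 34 and 17 counts in Control, 103 and 73 in PAX6_Ta KO and 138 and 107 in PBX3_Cl KO, with both Control libraries below the other 4. It was higher in both knockouts than in Control, by 1.95 (SE 0.433, adjusted p = 0.0108) in PAX6_Ta KO and 2.58 (SE 0.435, adjusted p = 0.00218) in PBX3_Cl KO, comparisons that share the Control libraries. The first was lost without Control replicate 2 (1.63, adjusted p = 0.0922) or without PAX6_Ta KO replicate 1 (1.60, adjusted p = 0.109). The other 6 tested targets, MYC, EZR, DMPK, TGFBR1, CDKN1B and SLC12A2, had log2 differences between -0.53 and 0.62 and none passed with all libraries.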

How the data were processed

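RNA-seq libraries of K562 cells were analysed, 6 in all, and grouped and numbered by their sample titles. Reads were trimmed by the authors with Cutadapt (version 3.4) and aligned with STAR to GRCh37 (release 75). The authors deposited raw gene counts without normalization. No STAR version or strand setting is stated. A further 4 columns of single libraries in the count table match none of the 6 labels and were left out, as were the deposited comparison tables of fold changes and p-values per gene.

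In R (version 4.3.3), edgeR (version 4.0.16) filterByExpr kept 20746 of 52088 rows and TMM scaled the libraries. The 3 groups shared a single quasi-likelihood fit, with a prior df of 9.18 and a common BCV of 0.215. Benjamini-Hochberg adjustment ran over all genes tested, and genes were called below 0.05. Intervals are at 95%. The SE is the size of the log2 difference divided by the square root of its quasi-likelihood F statistic. Intervals of log2 differences are normal approximations from that SE and make no allowance for the few df. They are somewhat too narrow, and more so at few counts. A group at 0 was set to 3 counts, and ratios with few counts have exact intervals for counting error only. Replicates differed by more than sampling noise (chi-square per df 44 to 139). DESeq2 (version 1.42.0) was an alternative test, and the scripts were tested on simulated counts. GENCODE 44 lifted to GRCh37 gave positions by symbol (48664 rows) or identifier (1596 rows), while 1828 rows have none. AES and H2AFX were matched as TLE5 and H2AX. A further 3 genes of the network list are not reported here and are in none of its counts.

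The main fit did not pair the libraries. In the replicate block, an alternative, replicate numbers were taken to pair them. The reason was that the difference between replicates 1 and 2 correlated across genes between groups (0.389, 0.21 and 0.379). The blocked value is printed where it changed a call or moved a count by more than 1.5 times. The members, lists and alternatives were chosen with earlier results of these data known. Named were all members, network genes called in any comparison, tested PAX, SIX-family and DACH genes, the nearest tested protein-coding gene on either side of each member (on 1 side alone for SIX4), and the 5 genes most like EYA1 (log2 CPM with a prior count of 2). Alternatives were another scaling, no filter or a stricter one (1 CPM or more in 2 libraries), DESeq2, only the groups compared, the replicate block, each library left out and, added after seeing the data, the median of the chromosome arm taken out.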

Additional observations from a re-analysis of the deposited data

How the results depend on the processing

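With 1 library left out, the members called in PAX6_Ta KO against Control numbered 1 to 2 and in PAX6_Ta KO against PBX3_Cl KO 0 to 1, and with the arm median taken out 1 and 0, in each case through EYA3. Network genes called in PAX6_Ta KO against Control numbered 2 to 6 with a library left out and 7 with the replicate block, in PBX3_Cl KO against Control 3 to 5 with a library left out, 3 with the stricter filter and 8 with the block, and 9 with the block in PAX6_Ta KO against PBX3_Cl KO. Neighbours called in PAX6_Ta KO against Control numbered 20 to 56 with a library left out and 67 with the block, in PBX3_Cl KO against Control 34 with no filter and 37 with the block, and in PAX6_Ta KO against PBX3_Cl KO 17 to 42 with a library left out and 63 with the block. The block changed no call of a member. Depth limits EYA1 in the knockouts, EYA2 and EYA4, which have single counts.

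The sign changed only for values that were not called in either setting, and the cause was not tested. With the arm median taken out, this held in PAX6_Ta KO against Control for SIX4 (-0.08), PAX6 (-0.05) and PAX9 (-0.17), in PBX3_Cl KO against Control for PAX6 (-0.41), BAZ1B (-0.00) and LACTB2 (0.03), and in PAX6_Ta KO against PBX3_Cl KO for EYA1 (-0.04) and PTAFR (0.09). With the stricter filter it held for RPS12 in PBX3_Cl KO against Control (-0.00) and TBPL1 between the knockouts (0.01). With 1 library left out, values in PAX6_Ta KO against Control ran from -1.29 to 0.07 for PAX3, -0.07 to 0.26 for PAX9, -0.66 to 0.67 for CCND1, -0.38 to 0.23 for ZMYND8, -0.06 to 0.38 for XKR8 and -0.12 to 0.03 for RPS12. In PBX3_Cl KO against Control they ran from -0.43 to 0.18 for SIX5, -0.06 to 0.58 for PAX6, -0.54 to 0.35 for LACTB2, -0.59 to 0.14 for ZMYND8, -0.20 to 0.23 for RPS12, -0.10 to 0.46 for TBPL1 and -0.82 to 0.25 for MNAT1. Between the knockouts they ran from -0.18 to 0.84 for EYA1, -0.31 to 0.10 for PAX8, -0.01 to 0.32 for JUN, -0.18 to 0.48 for ZMYND8, -0.28 to 0.16 for RPS12, -0.29 to 0.29 for TBPL1 and -0.17 to 0.59 for DMPK.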
